A study of Rattus norvegicus with 20 samples.

Results

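Gene expression was compared between rear-leg muscle of diabetic rats given vanadyl sulfate and rear-leg muscle of untreated normal rats. The comparison took 10 of the 20 arrays of the study, 5 per group, chosen by their labels alone. It asks which differences from normal muscle were still measurable once diabetic rats had been treated. Untreated diabetic muscle (5 arrays) was set beside both groups. Muscle of normal rats given vanadyl sulfate (5 arrays) served where group means without shared arrays were needed. All 4 groups are rats of one labelled tissue. The sources used here name neither strain, age, sex nor the leg muscle sampled, and they state no dose, no duration of treatment and no way in which diabetes was induced. The labels do not say that replicates came from separate animals, so the p-values measure the spread between these samples, which may be technical.

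Insulin moves the glucose transporter Slc2a4 to the surface of muscle fibres, drives glycogen synthesis and restrains the use of fatty acids. When insulin is lacking, muscle burns more fat, enters less pyruvate into the citrate cycle and loses protein. Vanadyl sulfate is a salt of vanadium, an element whose compounds inhibit protein tyrosine phosphatases and lower blood glucose in diabetic animals. Treated diabetic muscle therefore differs from normal muscle in disease and in drug at once, and a difference between these groups cannot be assigned to either.

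Each array gave 1 signal per probe set, a group of short probes for one transcript, on a linear scale made with MAS5. Differences are on the log2(signal + 16) scale, where a value of 1 is a doubling, and understate the change of dim probe sets. The median signal per array was 464.8 to 506.4 in treated diabetic and 378.7 to 590.9 in normal muscle. The number of arrays is among the limits on precision, and a read depth does not apply. Creatine kinase, Ckm, was the brightest probe set on 3 of 5 treated diabetic and on 5 of 5 normal arrays, and all 16 measured skeletal muscle markers were bright enough to be named, which matches the labelled tissue. The log2 3'/5' signal ratio of the Gapdh control probe sets, a measure of RNA integrity, was 3.94, 0.13, 1.06, 0.50 and 1.31 in treated diabetic arrays and 2.90, 0.03, 2.91, 0.05 and 0.12 in normal arrays. Treated diabetic replicate 1 and normal replicates 1 and 3 thus stood apart from the other 7 arrays. The beta-actin ratio was 2.61, 1.2, 1.53, 2.40 and 2.09 in treated diabetic arrays and 3.01, 0.63, 1.68, 0.58 and 0.58 in normal arrays. The difference between group means was 0.19 for Gapdh (exact permutation p = 0.929, two-sided, adjusted over both ratios 0.929) and 0.67 for beta-actin (exact permutation p = 0.238, adjusted 0.476).

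Of 8740 probe sets tested, 0 differed between treated diabetic and normal muscle at an adjusted p under 0.05 with limma, which is 0%. The smallest adjusted p was 0.137, for the heat shock protein gene Hspa2. At an unadjusted p under 0.05 there were 893 probe sets (10.2%). Of these, 448 had the higher mean in treated diabetic and 445 the higher mean in normal muscle. If no probe set differed, 437 would be counted at this threshold. That excess depended on the fit. With the 10 compared arrays fitted alone, 507 (5.8%) had such a p, and the smallest adjusted p was 0.389. Leaving out 1 array at a time gave 531 (without treated diabetic replicate 5) to 1307 (without normal replicate 1). The standard errors and intervals given are from the fit of all groups, which also uses the spread within diabetic and treated normal muscle. By the fit of all groups and at an adjusted p under 0.05, untreated diabetic muscle differed from normal muscle at 62 probe sets (0.709%, 47 higher and 15 lower). Treated diabetic differed from diabetic muscle at 19 (0.217%, all 19 lower). These comparisons share arrays. The missing calls do not show that treated diabetic muscle was like normal muscle: the median 95% interval reached 0.83 to either side of the estimate on the log2 scale, so at many probe sets the interval was too wide to tell smaller differences from 0. Without the 3 arrays of high Gapdh ratio, 212 probe sets passed (57 higher and 155 lower in treated diabetic muscle). In the 4 treated diabetic and 3 normal arrays left, the beta-actin ratio was 1.2 to 2.4 and 0.58 to 0.63, with no overlap, so group and RNA integrity cannot be told apart there; with both ratios as covariates 0 passed.

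The 47 probe sets that were higher in diabetic muscle had a median difference of 0.55 in treated diabetic against normal muscle (range -0.50 to 2.19), beside 2.03 in diabetic against normal muscle and -1.32 in treated diabetic against diabetic muscle. Over all 8740 probe sets the median was 0.05 in treated diabetic against normal muscle. The 12 named genes were those with the largest rise in diabetic muscle, so their diabetic signals are a description of how they were chosen. The same normal arrays entered the choice of the 47 probe sets and of these genes. That choice also favours positive differences in treated diabetic against normal muscle, so the median and intervals given carry no test of what remained. In treated diabetic against normal muscle the groups overlapped in all 12 and 0 passed the threshold. Overlap was the rule: over all 4736 genes 0.443% were higher and 0.232% lower without overlap, and 0 of 8740 probe sets passed. The 95% interval included 0 in 9 of the 12 and lay above 0 in 3 (Spock2, Lox and Camk2n1).

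Among structural genes of the fibre, Ankrd1 (U50736_s_at) encodes a titin-bound repeat protein of the sarcomere that responds to stretch and injury. Its signals were 1788, 1533, 566, 4784 and 995 in treated diabetic, 16285, 18198, 17292, 16634 and 3383 in diabetic and 1478, 709, 1205, 913 and 835 in normal arrays. Treated diabetic replicates 1, 2 and 4 stood above all normal arrays and replicate 3 below all of them, while 4 of the 5 diabetic arrays were higher than any array of the other groups. Treated diabetic muscle had 1.5-fold the normal level (log2 difference 0.58 ± 0.53, SE, n = 5 per group, 95% interval -0.53 to 1.69, limma adjusted p = 0.719), beside 12.3-fold in diabetic against normal muscle (adjusted p = 0.00215) and 8.19-fold lower in treated diabetic than in diabetic muscle (adjusted p = 0.0177, limma). Embryonic myosin heavy chain, Myh3 (X04267_at), which adult rat muscle makes anew in regenerating fibres, had 5668, 3668, 6116, 5939 and 7099 in treated diabetic, 63137, 28876, 74175, 26452 and 5022 in diabetic and 4287, 2696, 7915, 8481 and 3130.4 in normal arrays. The treated diabetic signals lay inside the normal range, and diabetic replicate 5 did too (log2 difference 0.23 between treated diabetic and normal muscle, 95% interval -0.87 to 1.32). The 4 other probe sets annotated to Myh3, which may also bind related myosins, gave -0.52, -0.13, -0.33 and -0.50 for treated diabetic against normal muscle. Camk2n1 (rc_AA858621_g_at), an inhibitor of the calcium-regulated kinase CaMKII, had 223, 412, 161, 244 and 205 in treated diabetic, 963, 792, 1364, 978 and 719 in diabetic and 71, 88.1, 196, 168 and 177 in normal arrays. Treated diabetic replicate 3 lay among the normal arrays and the other 4 above them (log2 difference 0.79, 95% interval 0.03 to 1.55, limma adjusted p = 0.472); all 5 normal and 4 treated diabetic signals were under the array's own 40th percentile, and its other probe set gave 0.38.

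Lyz2, Coro1a and Spp1, genes of macrophages and other leukocytes that rose in diabetic muscle, gave log2 estimates of 0.31 to 0.55 in treated diabetic against normal muscle, each with an interval that includes 0. Lyz2 (rc_AA892775_at), the bacteria-degrading lysozyme of macrophages, had 2701, 4093, 4008, 5297 and 2042 in treated diabetic, 32231, 14604, 34588, 13575 and 5914 in diabetic and 4389, 4225, 3996, 2232 and 999 in normal arrays. Only treated diabetic replicate 4 exceeded every normal array, and all diabetic arrays did (treated diabetic against normal log2 difference 0.31 ± 0.45, SE, n = 5 per group, 95% interval -0.64 to 1.25, limma adjusted p = 0.84). Coro1a (rc_AA892506_at), a leukocyte actin-binding protein, had 78.9, 395, 289, 53.9 and 50.2 in treated diabetic, 5155, 276, 5620, 846 and 282 in diabetic and 74, 219, 65.9, 82.6 and 89.2 in normal arrays. Its treated diabetic arrays fell on both sides of the normal ones, which were all under their 40th percentile (log2 difference 0.32, 95% interval -1.22 to 1.87). Spp1 (M14656_at), the secreted matrix protein osteopontin of macrophages and regenerating muscle, had 155, 132, 214, 291 and 346 in treated diabetic, 1705, 1679.7, 1449, 2773 and 331 in diabetic and 287, 256, 31.7, 191 and 103 in normal arrays. Treated diabetic replicates 4 and 5 lay above the highest normal array, and diabetic replicate 5 was as low as those (log2 difference 0.55, 95% interval -0.52 to 1.62). Over the whole list of immune cell markers, 27 of 41 were measured, 1 was higher at an unadjusted p under 0.05 and 0 lower in treated diabetic muscle, and the median difference was 0.13 (1.08 in diabetic against normal muscle); over all 4736 genes 5.34% were higher and 4.05% lower at that p, and the median was 0.08. Summed over the list, the signal was 32726 to 47889 in treated diabetic, 56709 to 165851 in diabetic and 31568 to 39067 in normal arrays. Csf1r, Itgam and Vav1 were under the 40th percentile on all 10 treated diabetic and normal arrays. The 1 marker past that p was RT1-Da, a class II antigen-presenting chain, with 11254, 10959.6, 12418, 8362 and 13594 in treated diabetic and 10443, 6965, 7639, 6990.4 and 5512 in normal arrays (log2 difference 0.60, adjusted p = 0.475, limma); its other probe set gave -0.21. The galectin Lgals3, a carbohydrate-binding protein of macrophages, had 2076, 2521, 2409.7, 2589 and 2726 in treated diabetic and 1736, 1389.8, 2549.5, 1905 and 1473 in normal arrays, with normal replicate 3 inside the treated range (log2 difference 0.47, 95% interval -0.08 to 1.02). In whole tissue, fewer cells of a type and less RNA per cell cannot be told apart.

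Cidea, Esm1 and Gnat3, which rose in diabetic muscle, gave log2 estimates of -0.22 to -0.11 in treated diabetic against normal muscle, each with an interval that includes 0. Cidea (rc_AA800243_at), a lipid droplet protein, had 1317, 495, 685, 496 and 655 in treated diabetic, 4268, 2735, 4041, 3021 and 3119 in diabetic and 449, 843, 567, 1072 and 939.8 in normal arrays. Every diabetic array was higher than every array of the other groups, and the treated diabetic and normal arrays were mixed (log2 difference -0.11, 95% interval -0.81 to 0.59). Treated diabetic muscle was 4.88-fold lower than diabetic muscle (adjusted p = 0.00531, limma). Esm1 (rc_AI233219_at), a secreted proteoglycan of endothelial cells, had 583, 875, 855, 1171 and 1486 in treated diabetic, 4846, 3959, 3839, 5929 and 2471 in diabetic and 1256, 1259.5, 1145, 1072 and 597 in normal arrays. Its treated diabetic and normal arrays were mixed as well, below all diabetic arrays (log2 difference -0.12, 95% interval -0.78 to 0.54). The transducin-like G protein subunit Gnat3, known from taste cells, was dim, with 25.9 to 101 in treated diabetic, 155 to 604 in diabetic and 16.7 to 162 in normal arrays (log2 difference -0.22, 95% interval -1.18 to 0.74). Cpt1a and Decr1, enzymes of fatty acid oxidation that also rose in diabetic muscle, gave 0.51 and 0.22, and their intervals include 0 as well (Decr1 was chosen after its values were seen). The sign of the small differences of Cidea, Esm1, Gnat3, Coro1a, Lyz2, Myh3 and Thbs4 turned under at least 1 other setting, so none of them has a settled direction.

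Matrix genes differed among themselves. Spock2 (rc_AI639294_at), a secreted proteoglycan, had 978, 998, 1148, 2694 and 864 in treated diabetic, 2379, 1119.9, 1446, 946 and 1698 in diabetic and 228, 345, 930.4, 141 and 93.8 in normal arrays. Treated diabetic and diabetic signals spanned one range, and 4 of 5 normal arrays were below it, with normal replicate 3 inside. Treated diabetic muscle had 4.55-fold the normal level (log2 difference 2.19 ± 0.45, SE, n = 5 per group, 95% interval 1.26 to 3.11, limma adjusted p = 0.345), beside 5.39-fold in diabetic muscle (adjusted p = 0.0112), and -0.25 on the log2 scale between treated diabetic and diabetic muscle (95% interval -1.17 to 0.68). Without normal replicate 3 its log2 difference was 2.64 (limma adjusted p = 0.00742), and with arrays weighted by their spread 2.74 (adjusted p = 0.0455). Lox (S66184_s_at), the enzyme that cross-links collagen and elastin, had 666, 1865, 1135, 1160.2 and 592 in treated diabetic, 7619.9, 1792, 5886, 2715 and 2098 in diabetic and 602, 303, 563, 359.6 and 211 in normal arrays. Treated diabetic replicate 5 lay inside the normal range and the other 4 above it, and replicate 2 reached the diabetic range (log2 difference 1.35 ± 0.42, SE, n = 5 per group, 95% interval 0.48 to 2.22, limma adjusted p = 0.384). The 3 other Lox probe sets gave 0.43, 0.03 and 0.49. Thbs4 (X89963_at), a thrombospondin of the muscle and tendon matrix, had 1089, 6434, 1623, 4619 and 5304 in treated diabetic, 14769, 10894, 13592, 9466 and 14533 in diabetic and 3325, 2003, 3119, 4213 and 1699.6 in normal arrays. The treated diabetic arrays split, with 2 below all normal arrays and 3 above all of them (log2 difference 0.18, 95% interval -0.74 to 1.10). Of 41 matrix genes listed, 32 were measured, 3 were above and 2 below normal at an unadjusted p under 0.05, beside 5.34% higher and 4.05% lower over all genes, and the median was 0.07. That median turned to -0.09 without treated diabetic replicate 2 and to -0.12 with all probe sets of a gene averaged.

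**Figure D1:**
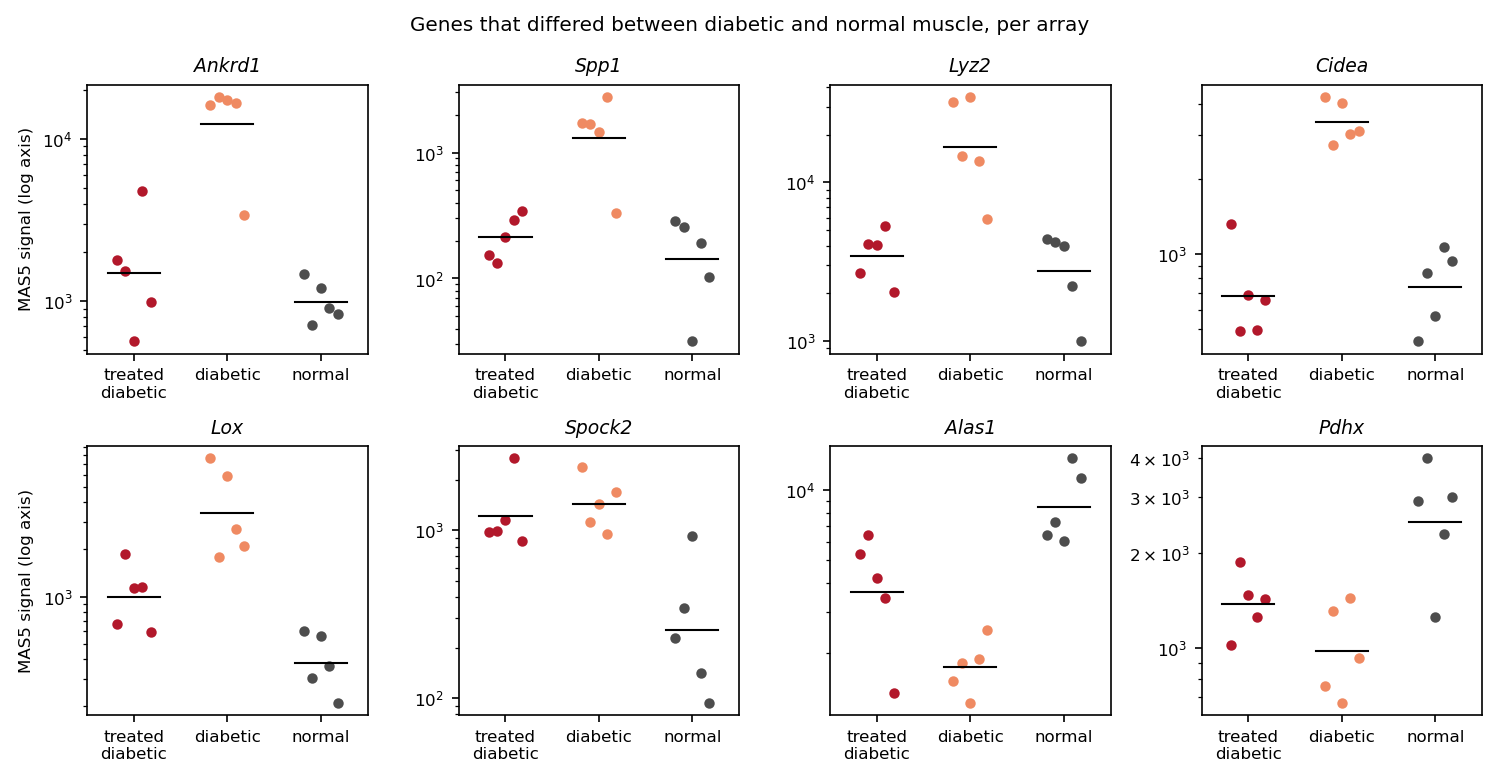
Signals of genes that differed between diabetic and normal muscle, on a log axis, 1 point per array, with treated diabetic at the left, diabetic in the middle and normal at the right; bars mark means taken on the log2(signal + 16) scale. Ankrd1, Lyz2 and Cidea lie near normal in treated diabetic arrays, Spock2 lies near diabetic, and Alas1 lies between.

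**Figure D2:**
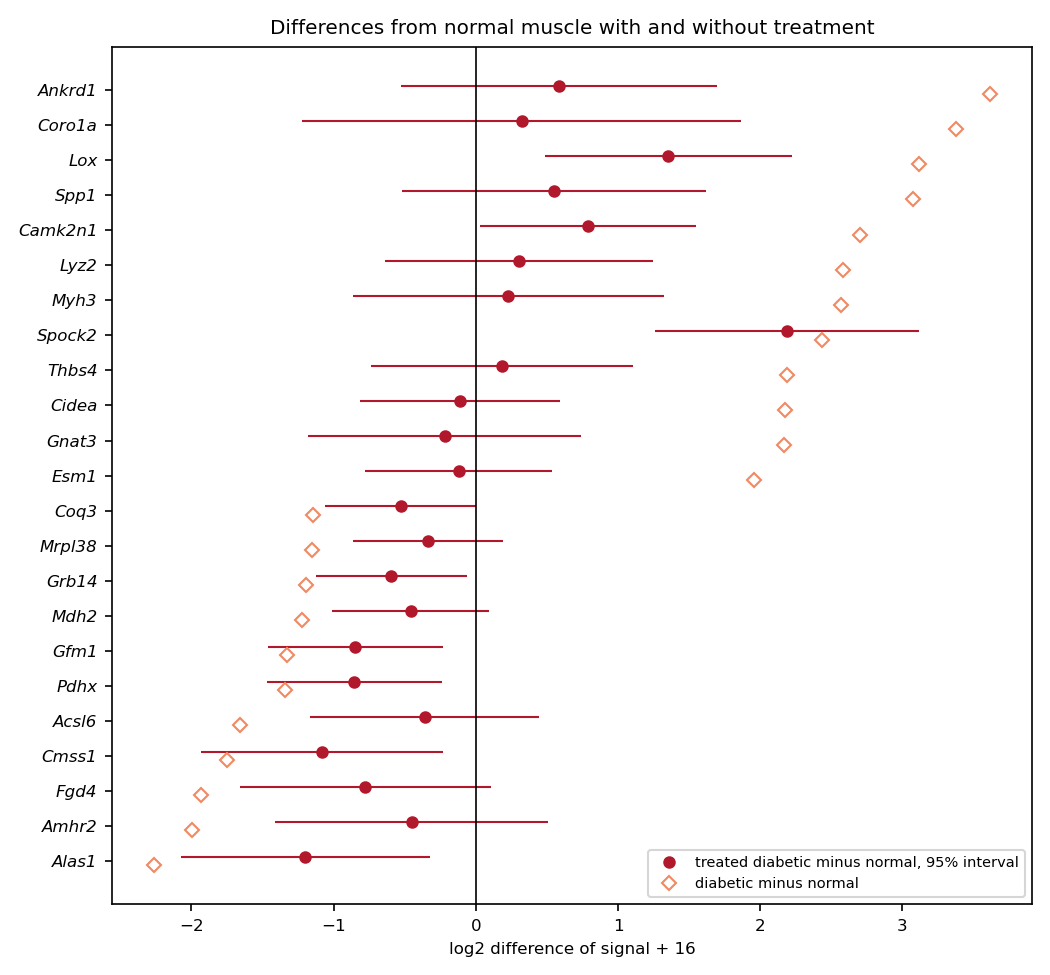
Log2 difference from normal muscle with its 95% interval for the 12 genes that rose and the 11 that fell most in diabetic muscle; filled points are treated diabetic minus normal and open points diabetic minus normal. Intervals of 3 genes lie above 0 (Spock2, Lox and Camk2n1) and of 5 below 0 (Alas1, Cmss1, Pdhx, Gfm1 and Grb14) in treated diabetic muscle. The same normal arrays entered the choice of these genes.

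Spock2 had the largest positive difference from normal muscle among the named diabetes genes. Spp1 overlapped the normal arrays, as most genes did. Alas1, described with the genes that fell, gave the most negative difference among the named diabetes genes. The promoters of these 3 genes are shown as examples. Each runs 5′ to 3′ from 250 bases before to 50 bases after the RefSeq gene start on GRCr8, at chr20:28580012-28580311 (plus strand), chr14:5619755-5620054 (minus strand) and chr8:115768593-115768892 (minus strand). Capitals mark matches on either strand to TATAAA, the TATA box, CANNTG, the E-box that muscle regulatory factors bind, TGANTCA, the AP-1 motif, and TGCGCA, the core of the site of NRF1, a regulator of heme and mitochondrial genes.
Spock2: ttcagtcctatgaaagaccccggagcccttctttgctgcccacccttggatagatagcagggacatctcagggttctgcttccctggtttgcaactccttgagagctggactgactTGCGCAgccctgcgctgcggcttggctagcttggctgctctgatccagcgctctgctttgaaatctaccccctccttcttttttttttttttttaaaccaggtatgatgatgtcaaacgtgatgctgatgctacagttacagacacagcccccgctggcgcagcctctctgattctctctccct
Spp1: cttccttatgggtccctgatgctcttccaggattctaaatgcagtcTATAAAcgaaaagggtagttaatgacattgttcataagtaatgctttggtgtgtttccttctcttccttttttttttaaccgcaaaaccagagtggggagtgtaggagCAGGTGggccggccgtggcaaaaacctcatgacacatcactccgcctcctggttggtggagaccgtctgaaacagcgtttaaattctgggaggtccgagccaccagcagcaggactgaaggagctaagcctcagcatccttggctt
Alas1: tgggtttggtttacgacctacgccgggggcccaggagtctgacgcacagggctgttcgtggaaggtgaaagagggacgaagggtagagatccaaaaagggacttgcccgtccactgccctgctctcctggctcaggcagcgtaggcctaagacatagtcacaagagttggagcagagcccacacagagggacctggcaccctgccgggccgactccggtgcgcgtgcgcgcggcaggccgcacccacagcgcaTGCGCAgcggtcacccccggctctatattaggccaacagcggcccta
Spock2 and Alas1 each held 1 TGCGCA, which 7.24% of 33469 promoters of this length hold. Spp1 held 1 TATAAA (14.2% of promoters) and 1 CANNTG (72.1%), and none of the 3 held TGANTCA (7.33%). The matches did not overlap, and they describe letters in a window, not bound sites.

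The genes that fell in diabetic muscle included ones of heme synthesis, mitochondria and insulin receptor signalling. The 15 probe sets that were lower in diabetic muscle had a median of -0.60 in treated diabetic against normal muscle (range -1.52 to -0.34), beside -1.66 in diabetic against normal and 0.76 in treated diabetic against diabetic muscle. Of these, 11 stood for a named gene. All 11 had a negative treated diabetic estimate, with overlapping groups as most genes had, and 0 passed the threshold. The 95% interval lay below 0 in 5 (Alas1, Cmss1, Pdhx, Gfm1 and Grb14) and included 0 in 6. The same normal arrays entered the choice of these probe sets and genes, which favours negative estimates here, so signs and intervals carry no test.

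Alas1 (J03190_at), the rate-limiting enzyme of heme synthesis outside red cells, had 5337, 6433, 4192, 3448 and 1356 in treated diabetic, 1523, 1829.6, 1231, 1886 and 2530.2 in diabetic and 6398, 7271, 6073, 13675 and 11249.6 in normal arrays. Treated diabetic replicate 2 was the only one to reach the normal range, replicate 5 lay among the diabetic arrays, and the other 3 lay between. Treated diabetic muscle was 2.29-fold lower than normal (log2 difference -1.20 ± 0.42, SE, n = 5 per group, 95% interval -2.07 to -0.32, limma adjusted p = 0.437), beside 4.8-fold lower in diabetic muscle (adjusted p = 0.0124); the other Alas1 probe set gave -0.49 and -1.80. Alad, the next enzyme of the pathway, had 2544, 1846, 2144, 1431 and 929 in treated diabetic and 2359, 2337, 2272, 3248 and 2368 in normal arrays, with replicate 1 above 4 of the 5 normal arrays and the other treated diabetic arrays below all of them (log2 difference -0.56, adjusted p = 0.484, limma). Of 9 measured genes of heme synthesis and breakdown, these 2 were lower and 0 higher at an unadjusted p under 0.05 (4.05% lower and 5.34% higher over all genes), and the median was -0.14. The summed signal of the list was 15601 to 20516 in treated diabetic and 20542 to 32361 in normal arrays. Bright genes weigh most in such a sum. The mean log2 difference of the members from normal, which weighs each gene equally, overlapped between the groups. It was -0.42 to -0.19 in treated diabetic and -0.23 to 0.35 in normal arrays.

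Pdhx (rc_AA893184_at), the component that binds E3 into the pyruvate dehydrogenase complex, had 1026, 1877, 1475, 1252 and 1429.6 in treated diabetic, 761, 1313, 673, 1439.9 and 934 in diabetic and 2909.8, 3985, 1253, 2299 and 3003 in normal arrays. Except for normal replicate 3, every normal array was higher than every treated diabetic one (log2 difference -0.85 ± 0.30, 95% interval -1.47 to -0.24, limma adjusted p = 0.437). Gfm1 (L14684_at), an elongation factor of mitochondrial translation, had 4129.9, 5918, 4143, 3279.8 and 3488 in treated diabetic, 1919, 4546, 1659.5, 4630.3 and 3247 in diabetic and 8220.2, 7853, 5429, 7959.5 and 7891 in normal arrays. Normal replicate 3 fell below treated diabetic replicate 2, and otherwise the groups were apart (-0.85, 95% interval -1.46 to -0.23, on the log2 scale). Mdh2 (rc_AI010480_at), mitochondrial malate dehydrogenase, had 65856, 49184, 60009, 36251 and 33148 in treated diabetic, 22821, 34921, 19900.1, 38968 and 26829 in diabetic and 58955, 54565, 75153, 79219 and 59973 in normal arrays. Treated diabetic replicates 1, 2 and 3 were near or inside the normal range and 4 and 5 inside the diabetic one (log2 difference -0.46, 95% interval -1.01 to 0.10), and its other probe set gave 0.27. Mrpl38, a mitochondrial ribosomal protein, and Coq3, a methyltransferase of ubiquinone synthesis, gave log2 differences of -0.34 and -0.53, beside -1.15 for each in diabetic muscle; the other Mrpl38 probe set gave -1.60.

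Grb14 (AF076619_at), an adaptor that binds and inhibits the insulin receptor, had 2423, 2313, 1957, 1118 and 1732 in treated diabetic, 1028, 1125, 1025, 1324 and 1658 in diabetic and 3344, 2683, 2115, 3845 and 2322 in normal arrays. Treated diabetic replicates 1 and 2 reached the normal range and replicate 4 lay in the diabetic one (log2 difference -0.60 ± 0.26, 95% interval -1.13 to -0.06, limma adjusted p = 0.452). Acsl6, a long-chain acyl-CoA synthetase, gave -0.36 (95% interval -1.16 to 0.44), beside -1.66 in diabetic muscle. Its treated diabetic signals, 1917 to 5417, lay mostly inside the normal range of 2084 to 8428 and above the diabetic range of 889 to 1702. Cmss1 gave -1.08 (95% interval -1.93 to -0.23), with one treated diabetic array apart from the others at 398 and one normal array apart at 5344. Fgd4, an exchange factor for the GTPase Cdc42, gave -0.78 (95% interval -1.66 to 0.10) and Amhr2, the receptor for anti-Müllerian hormone, -0.45 (95% interval -1.41 to 0.51), beside -1.93 and -2.00 in diabetic muscle.

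The plot of log2 differences for these named genes shows each treated diabetic estimate beside its diabetic one, and the plot of array signals shows the spread behind them. By their choice, the diabetic estimates are far from 0, so the distance between the paired points carries no test. The same normal arrays entered that choice, which favours treated diabetic estimates of the same sign.

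Untreated diabetic and treated normal muscle share no array with treated diabetic and normal muscle, so their group means gave a list from other arrays. The spread behind that choice was pooled over all groups, including treated diabetic and normal muscle. The groups used for the choice also differ in disease and in drug at once. A chosen probe set therefore need not differ between diabetic and normal muscle. Untreated diabetic muscle differed from treated normal muscle at 96 probe sets (1.1%). Of the 46 that were higher in diabetic muscle, 29 (63%) had a positive treated diabetic minus normal difference, beside 54.1% of all probe sets, and 3 (6.52%) were higher at an unadjusted p under 0.05, beside 5.13% of all. Of the 50 that were lower, 28 (56%) had a negative difference, beside 45.9% of all probe sets, and 8 (16%) were lower at that p, beside 5.09%. The medians were 0.20 and -0.09, beside 0.05 for all probe sets, and 0 of the 96 passed limma's adjusted threshold. Because the pooled spread entered both the choice and these p-values, the shares at an unadjusted p under 0.05 carry no independent test.

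With no gene past the threshold, the 5 genes of smallest p in each direction are given as values. Each was bright in its higher group. Their adjusted p was 0.345, except 0.137 for Hspa2. Spock2, described with the matrix genes, had the smallest p of those higher in treated diabetic muscle (8.2e-05). Notch1 (X57405_g_at), the receptor that keeps muscle stem cells undifferentiated, had 2330.3, 1969.5, 2671, 2737 and 3734 in treated diabetic, 2259.7, 2573, 2645, 2644 and 2691 in diabetic and 1581, 1273, 849, 1702 and 1247 in normal arrays. Treated diabetic and normal arrays did not overlap, which was so for 0.443% of genes in this direction and 0.232% in the other (log2 difference 1.01 ± 0.23, SE, n = 5 per group, 95% interval 0.54 to 1.48, limma adjusted p = 0.345). Its other probe set, X57405_at, gave -0.27. Tbxa2r (D32080_at), the thromboxane receptor of platelets and vessel walls, had 2022, 994, 774, 1428 and 517 in treated diabetic, 982, 809, 738, 456 and 727 in diabetic and 219.5, 274, 374, 286 and 329.5 in normal arrays, again without overlap. Its log2 difference was 1.76 ± 0.41 (95% interval 0.91 to 2.62), with 3 normal arrays under their 40th percentile and 0.37 from another probe set. Sart1, a splicing factor, had 6623, 4333, 4240.2, 8938 and 12645 in treated diabetic and 4551, 1835, 3228, 2123 and 2789 in normal arrays (log2 difference 1.28, 95% interval 0.60 to 1.96), where normal replicate 1 alone reached the treated range; another probe set gave 0.12. Cdc123, an assembly factor of the translation initiation complex eIF2, had 5377, 4377, 6305, 6342 and 12707 in treated diabetic and 5507, 3022, 2846, 2733 and 1787 in normal arrays (log2 difference 1.13, 95% interval 0.52 to 1.75), and normal replicate 1 again was the only normal array inside the treated range.

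Hspa2 (X15705cds_at), a heat shock protein of the 70 kDa family, had 41.3, 197, 27.7, 29 and 25.8 in treated diabetic, 93.6, 186, 169, 178 and 114 in diabetic and 189, 293, 559, 272 and 381 in normal arrays. Treated diabetic replicate 2 alone overlapped the normal range, and all 5 treated diabetic and 2 normal signals were under their array's 40th percentile (log2 difference -2.41 ± 0.43, SE, n = 5 per group, 95% interval -3.30 to -1.52, limma adjusted p = 0.137). Without that replicate the log2 difference was -2.84 (adjusted p = 0.00131). Vps26a (rc_AA894037_at), a subunit of the retromer that recycles membrane receptors, had 144, 267, 121, 258 and 257 in treated diabetic and 414, 789, 358, 488 and 543 in normal arrays, which did not overlap (log2 difference -1.26, 95% interval -1.89 to -0.63). Kpnb1 (L38644_at), the importin that carries proteins into the nucleus, had 57, 263, 161, 205 and 72.6 in treated diabetic and 298, 648, 479, 497 and 737 in normal arrays, also apart (log2 difference -1.83, 95% interval -2.75 to -0.91). Both were dim in all 5 treated diabetic arrays. Cardiac alpha-actin, Actc1 (rc_AA866452_s_at), which immature skeletal fibres also make, had 4451, 6379, 4281, 1756 and 1464 in treated diabetic, 46406, 26534, 47217, 25667 and 1883 in diabetic and 10095, 28692, 16645, 57309 and 51391 in normal arrays. The highest treated diabetic array was below the lowest normal one, and the normal arrays themselves spread widely (log2 difference -3.09 ± 0.76, SE, n = 5 per group, 95% interval -4.67 to -1.50, limma adjusted p = 0.345). Car3 (AF037072_at), the carbonic anhydrase abundant in slow fibres and fat, had 7212, 18978, 7545, 6028 and 1376 in treated diabetic, 22192, 37048, 24756, 31251 and 9112 in diabetic and 17234, 30339, 14533, 51876 and 30656 in normal arrays, with treated diabetic replicate 2 alone inside the normal range (log2 difference -2.09, 95% interval -3.19 to -0.98).

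**Figure D3:**
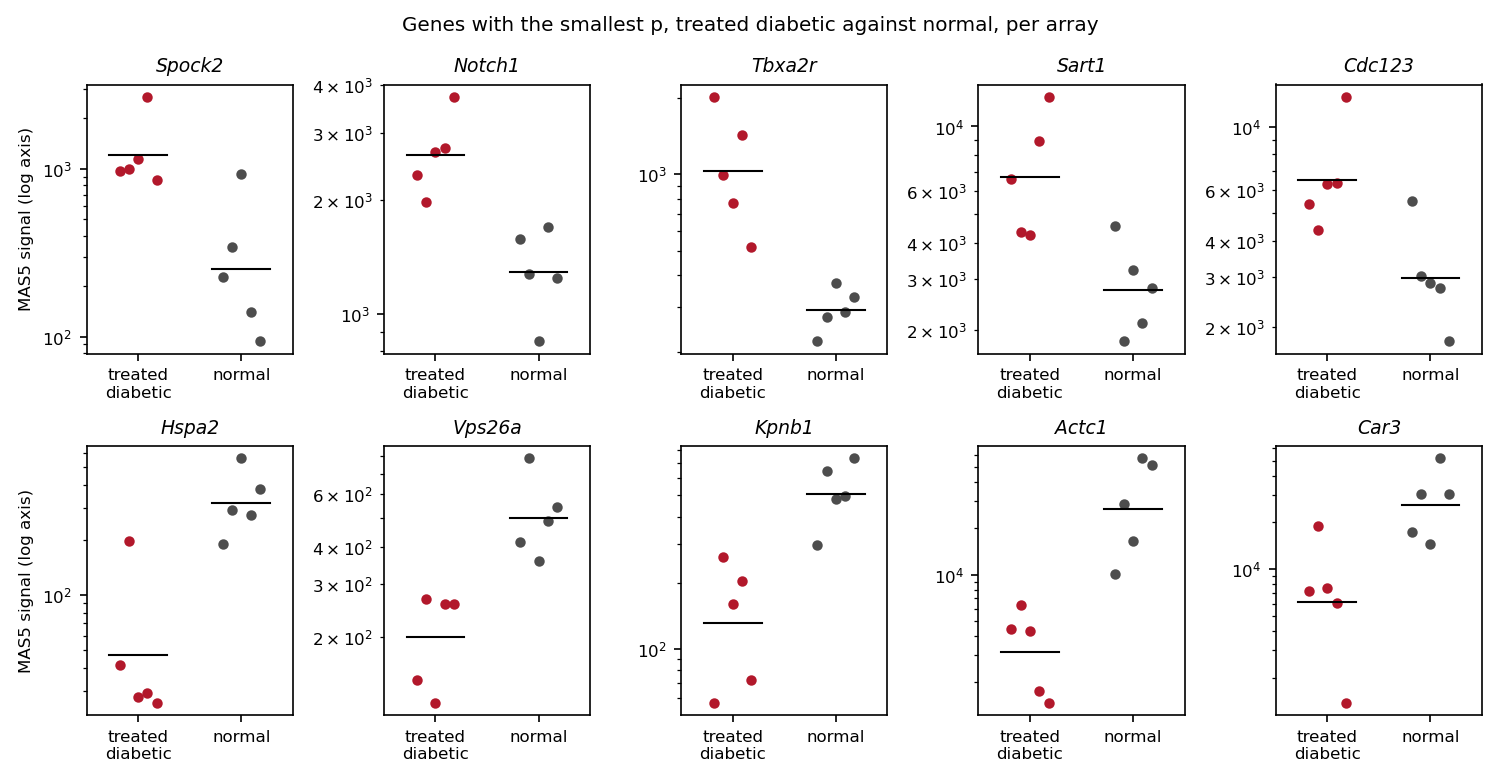
Signals of the 10 genes of smallest p between treated diabetic and normal muscle on a log axis, 1 point per array, with treated diabetic at the left and normal at the right; bars mark means taken on the log2(signal + 16) scale. Treated diabetic and normal arrays do not overlap for Notch1, Tbxa2r, Vps26a, Kpnb1 and Actc1.

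Genes of slow, oxidative fibres had the most negative median of the 27 lists. Of 10 measured, 4 were lower and 0 higher at an unadjusted p under 0.05, where 4.05% of all genes were lower and 5.34% higher. The median was -0.83 (0.27 in diabetic against normal muscle), beside 0.08 over all genes. Tnni1, slow troponin I, had 41164, 3122, 18948, 9615 and 6282 in treated diabetic and 32607, 21087, 31546, 35360.1 and 24713 in normal arrays (log2 difference -1.40, 95% interval -2.58 to -0.22). Myl2, the slow regulatory myosin light chain, had 85746, 9450.3, 57044, 20236 and 1601 in treated diabetic and 59929, 46199.8, 59674, 51665 and 41259.7 in normal arrays (log2 difference -1.57, 95% interval -3.11 to -0.04). Both genes were above every normal array in treated diabetic replicate 1, and their lowest signals were in replicates 2 and 5. The slow calcium pump Atp2a2 gave -0.95 (95% interval -1.78 to -0.11; 0.48, -0.55 and -0.25 from other probe sets) and its inhibitor phospholamban, Pln, -1.70 (95% interval -2.58 to -0.83), which was dim on all 10 arrays. A list score, the mean difference of the members from their normal mean, was 0.25, -1.72, -0.12, -0.77 and -1.73 in treated diabetic and -0.18 to 0.28 in normal arrays. The treated diabetic arrays thus ran from normal to far below it. The score ran from -1.25 to -0.01 in treated normal and -0.51 to 0.61 in diabetic arrays. Low scores were therefore not particular to treated diabetic muscle. Without treated diabetic replicate 2 or replicate 5, 1 gene in place of 4 was lower at that p, with medians of -0.56 and -0.66; 2 were without normal replicate 1 or 4, and 2 with arrays weighted by their spread. How much slow muscle each sample held was not measured otherwise. Fast fibre genes, 14 measured, had a median of 0.15, with 1 higher (Myh1, the IIx myosin heavy chain, log2 difference 0.83, 95% interval 0.07 to 1.59) and 0 lower. Single arrays set this value: the median was 0.42 with 6 higher without normal replicate 3, and -0.03 with 0 higher without treated diabetic replicate 1. It was -0.09 with quantile normalization, so the fast fibre list has no settled direction.

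Ribosomal protein genes had the most positive median, just above that of the immediate early genes. Of 37 measured, 13 were higher and 0 lower at p under 0.05 before adjustment (5.34% and 4.05% over all genes), the median was 0.45 (0.40 in diabetic against normal muscle), and 0 passed the adjusted threshold. Rpl41 had 16743, 11437, 15409, 9633 and 22965 in treated diabetic and 12668, 7132, 9892, 3065 and 2998 in normal arrays (log2 difference 1.26 ± 0.38, 95% interval 0.47 to 2.05, limma adjusted p = 0.384). Rps6, the subunit phosphorylated downstream of insulin and mTOR, had 65781, 41111, 63205, 52964 and 128975 in treated diabetic and 42973, 30838, 64018, 20539.9 and 15287 in normal arrays (log2 difference 1.09, 95% interval 0.35 to 1.83). For both genes the normal arrays 4 and 5 were lowest, and the groups overlapped. Rpl35 gave 0.79 and Rpl4 0.88. The other probe sets of Rps6 and Rpl35 gave 0.42 and 0.325. The list score was 0.60, 0.03, 0.57, 0.35 and 0.24 in treated diabetic and 0.14, -0.20, 0.52, -0.21 and -0.24 in normal arrays, and in each group arrays of high Gapdh ratio were among the highest. Leaving out 1 array at a time left 4 to 19 genes at that p (4 without treated diabetic replicate 1, 5 without normal replicate 2, 6 without treated diabetic replicate 5 or normal replicates 4 or 5). With the 10 compared arrays fitted alone there were 2. With quantile normalization 8 were higher and the median was 0.25, below that of the glucocorticoid and atrophy genes (0.47). The list also lost first place with all probe sets of a gene averaged (0.37, beside 0.40 for immediate early genes); another list led under 9 of 23 alternatives. Fits that bear on RNA integrity gave different sizes in one direction. The 3'/5' covariates gave 9 higher and a median of 0.38. Leaving out the arrays of high Gapdh ratio gave 17 higher, 5 past the adjusted threshold and a median of 0.62. Both steps together gave 7 higher and a median of 0.20.

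Immediate early genes are transcription factors induced within minutes of stress, handling or growth signals. Their median was 0.43 (0.13 in diabetic muscle). At p under 0.05 before adjustment, 5 of 22 were higher and 0 lower (5.34% and 4.05% over all genes). The list score ran from 0.10 to 0.59 in treated diabetic and -0.14 to 0.19 in normal arrays. It ran from 0.28 to 0.42 in diabetic and 0.33 to 0.62 in treated normal arrays. Scores above normal were therefore not particular to treated diabetic muscle. Egr1 had 3894, 4478, 2847, 9134 and 7015 in treated diabetic and 3239.9, 3186, 3426, 1821 and 2026 in normal arrays, Fos 3492, 4198, 1699.9, 8441 and 1946 and 1866, 1963, 1889.5, 1327 and 2237, and Myc 659.8, 569.7, 319, 480.3 and 642 and 355, 206, 368, 239 and 267. The log2 differences were 0.92 (95% interval 0.23 to 1.61) for Egr1, 0.86 (0.16 to 1.56) for Fos and 0.85 (0.30 to 1.40) for Myc. Treated diabetic replicate 3 was inside the normal range for all of them, and replicate 4 was highest for Egr1 and Fos. Other probe sets gave 0.33, 0.58 and -0.24 for Egr1, 0.28 and 0.97 for Fos and 0.59 for Myc. Without treated diabetic replicate 2 or normal replicate 5, 3 of the 22 genes were higher at that p, and with the 10 compared arrays fitted alone 2. Klf4 gave 1.21 (95% interval 0.16 to 2.26), and 0.475 from its other probe set. The sources used here state neither time of day nor feeding nor the time to preservation. The list of stretch and stress responsive genes shares Myc, Egr1, Fos, Atf3 and Jun with this one. It had 5 higher and 1 lower of 17, with a median of 0.23 (3 higher without treated diabetic replicate 4). Of the 5 higher, all but Myh8 are shared immediate early genes, so the counts of both lists are largely the same genes. Myh8, the perinatal myosin, had 153, 188, 133, 174 and 248 in treated diabetic and 96.3, 34.2, 27.4, 111 and 25.7 in normal arrays, which did not overlap though all were dim (log2 difference 1.53, 95% interval 0.47 to 2.58). Fhl2, a LIM protein of the sarcomere that lay the other way, had 62.5, 45, 109.5, 46.7 and 105 in treated diabetic, 1302, 1072, 952, 1218 and 227 in diabetic and 617, 204, 249, 139 and 289 in normal arrays. All treated diabetic arrays were below all normal ones (log2 difference -1.72 ± 0.57, 95% interval -2.90 to -0.53, limma adjusted p = 0.4), whereas diabetic muscle had an estimate of 1.58 against normal; the difference between treated diabetic and diabetic muscle was -3.29 (adjusted p = 0.0177). Fhl2 was dim on all 5 treated diabetic and 4 of 5 normal arrays, so the size of both differences is uncertain.

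Lists of fuel use gave medians of -0.18 to 0.15 in treated diabetic against normal muscle with 1 probe set per gene, and some moved with the setting. Citrate cycle and pyruvate entry genes (15 measured) had a median of -0.16, beside -0.86 in diabetic against normal muscle, with 1 higher (Pc, pyruvate carboxylase, 0.86; -0.78 from its other probe set) and 2 lower (Pdhx and the dim Sucla2, -0.97). The citrate cycle median was -0.57 with all probe sets of a gene averaged, -0.36 with quantile normalization and -0.31 without normal replicate 3. Respiratory chain and ATP synthase genes (42 measured) had a median of 0.15, beside -0.49, with 1 higher (Ndufs6, a complex I subunit, 0.66) and 0 lower. Without normal replicate 3 the median was 0.33 with 7 higher, and without treated diabetic replicate 2 it was 0.25 with 4 higher. Glycolysis and glycogen genes (24 measured) had a median of -0.18, beside -0.45, with 1 higher and 2 lower (5.34% and 4.05% over all genes). The median was -0.47 with all probe sets of a gene averaged and turned to 0.07 without treated diabetic replicate 5, and 7 genes were lower without normal replicate 1. The lower ones were Phkg1, the subunit of phosphorylase kinase that carries its activity in muscle, and Ldhb, heart-type lactate dehydrogenase. Phkg1 had 10054, 12451, 12096, 6926 and 7137 in treated diabetic and 16476, 19070.2, 9563, 28132 and 24632 in normal arrays, with normal replicate 3 inside the treated range (log2 difference -0.96, 95% interval -1.70 to -0.22; -2.57 and -1.84 from its other probe sets). Ldhb was low in treated diabetic replicates 2 and 5, as the slow fibre genes were, with 19312, 3827, 14134, 15711 and 3540.2 in treated diabetic and 20003, 18661, 12509.6, 24487 and 17671 in normal arrays (log2 difference -1.02, 95% interval -1.90 to -0.14).

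The higher one was Hk2 (D26393exon_s_at), the insulin-induced hexokinase that traps glucose in the fibre, with 5409, 2942, 1615, 4905 and 11236 in treated diabetic, 2037, 1853, 2672, 1636 and 2353 in diabetic and 3488, 522, 2071, 1112 and 2267 in normal arrays. Treated diabetic replicates 2 and 3 lay inside the normal range and the other 3 above it (log2 difference 1.43 ± 0.47, SE, n = 5 per group, 95% interval 0.45 to 2.42, limma adjusted p = 0.4). Its other probe set gave -0.26, so the probe sets disagree in sign. Slc2a4 (D28561_s_at), the insulin-responsive glucose transporter GLUT4, had 12436, 18060.2, 17731, 23397 and 6730.1 in treated diabetic, 6972, 9705, 7834, 12734 and 7699.5 in diabetic and 24701, 24581, 15609, 15683 and 19811 in normal arrays. Treated diabetic replicates 2, 3 and 4 lay inside the normal range, replicate 1 inside the diabetic one and replicate 5 below all arrays (log2 difference -0.45, 95% interval -1.06 to 0.17). Another Slc2a4 probe set gave 0.53. The insulin receptor Insr gave -0.12 (95% interval -0.88 to 0.65). Its substrate Irs1 had 505, 1226, 1291, 416 and 714 in treated diabetic, 479, 452, 436, 692 and 345 in diabetic and 1171, 2666, 1161, 993 and 831 in normal arrays, so that treated diabetic replicates 2 and 3 were as high as most normal arrays and the other 3 were lower than all of them (log2 difference -0.72, 95% interval -1.46 to 0.02). Of 42 measured genes of insulin and IGF signalling, 3 were higher and 3 lower at p under 0.05 before adjustment (5.34% and 4.05% over all genes), and the median was -0.06. Slc2a1, the basal glucose transporter GLUT1, had 1189.7, 796, 902, 1677 and 2009.9 in treated diabetic and 938, 309, 718, 692 and 343 in normal arrays, with normal replicate 1 inside the treated range (log2 difference 1.15, 95% interval 0.40 to 1.90), beside 1.17 in diabetic muscle; its other probe set gave -0.23. Gsk3b, the kinase that inhibits glycogen synthase, had 1705, 1534, 1985, 1593 and 2181 in treated diabetic and 719, 450.1, 1426, 1404 and 1360.1 in normal arrays, which did not overlap (log2 difference 0.86, 95% interval 0.19 to 1.53; 0.26 from its other probe set). Tsc2, an inhibitor of mTOR, gave -1.40 (95% interval -2.64 to -0.15), with signals of 139 to 1988 in treated diabetic and 599 to 3587 in normal arrays.

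For several fat-handling genes the normal arrays disagreed among themselves. Pdk4 (AF034577_at), the kinase that shuts pyruvate dehydrogenase in fasting and diabetes, had 84.8, 495, 58.4, 407 and 64.8 in treated diabetic, 1157, 4744, 981, 4544 and 626 in diabetic and 51.8, 10249, 32, 3599.5 and 2392 in normal arrays. Normal replicates 1 and 3 were the lowest of all and normal replicate 2 the highest, and the 2 lowest were arrays of high Gapdh ratio (log2 difference -2.22, 95% interval -4.63 to 0.18). Ucp3 (AF035943_at), a mitochondrial carrier that rises with fatty acid supply, had 2110.1, 2880.3, 1819, 2377 and 2055 in treated diabetic, 5392, 7782, 5772, 7334 and 9179 in diabetic and 1269.9, 10961, 1757, 16135 and 11170 in normal arrays. Normal arrays again split, with replicates 1 and 3 below all treated diabetic signals and the other 3 above all diabetic ones (log2 difference -1.27, 95% interval -2.65 to 0.11). Cd36, the fatty acid transporter, was dim at this probe set in treated diabetic muscle (33.2 to 84.6) and ran from 73.2 to 4753 in normal arrays (log2 difference -2.40, 95% interval -4.48 to -0.32). Without the arrays of high Gapdh ratio, the difference passed the threshold for Pdk4 (-4.56, adjusted p = 0.0157) and Ucp3 (-2.47, adjusted p = 0.046), with the limit on RNA integrity given for that fit. Cpt1a (L07736_at), the gate for long-chain fatty acids into mitochondria, had 989, 964, 781, 1092 and 3754 in treated diabetic, 4111, 1976, 3040, 2718 and 3971 in diabetic and 819, 1144, 720, 891 and 837 in normal arrays. Except for replicate 5, which was as high as the diabetic arrays, treated diabetic signals lay inside the normal range (log2 difference 0.51, 95% interval -0.24 to 1.27). Cpt1b, its muscle form, gave -0.32 (95% interval -1.05 to 0.41). Cpt2, the inner-membrane partner, had 5953, 6448, 7603, 8118 and 2254 in treated diabetic and 8632, 9531, 7849, 11139 and 13691 in normal arrays, with replicate 5 far below the others (log2 difference -0.84, 95% interval -1.51 to -0.17). Lpl, which frees fatty acids from blood lipoproteins, gave 0.76 (95% interval 0.02 to 1.50), and -0.30 and -0.51 from other probe sets. Fabp3, the muscle fatty acid binding protein, gave 0.22 (95% interval -0.59 to 1.03). Scd, the stearoyl-CoA desaturase, had 347, 591, 369, 198 and 308 in treated diabetic, 858, 64.7, 1082, 154 and 34.8 in diabetic and 2964, 2077, 1346, 539 and 1109 in normal arrays. Except for normal replicate 4, normal arrays were above all treated diabetic ones (log2 difference -1.96, 95% interval -4.05 to 0.12; 0.26 from another, dim probe set). Of 28 measured genes of fatty acid uptake and oxidation, 1 was higher and 2 lower at p under 0.05 before adjustment (5.34% and 4.05% over all genes), with a median of -0.17 (0.22 in diabetic muscle).

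Other lists held single genes of small p, with counts to be read against 5.34% higher and 4.05% lower over all genes. In the ubiquitin and proteasome list (30 measured, median 0.13, 2 higher and 2 lower), Trim63, the atrophy ubiquitin ligase MuRF1, had 45173, 16146, 49750.3, 39274 and 68284 in treated diabetic and 18735, 8198, 51223, 12919 and 14201 in normal arrays. Normal replicate 3 was as high as treated diabetic replicates 1 and 3, and treated diabetic replicate 2 lay among the other normal arrays (log2 difference 1.21, 95% interval 0.32 to 2.11). The other Trim63 probe set gave 0.405. Ube2d2, a ubiquitin-conjugating enzyme, gave -1.68 (95% interval -2.93 to -0.43). Among antioxidant and metal response genes (39 measured, median 0.13, 2 higher and 3 lower), Prdx3, the mitochondrial peroxiredoxin, had 10892, 15535, 12478, 10268 and 9927 in treated diabetic and 19034, 25224, 15582, 19674 and 20476 in normal arrays, without overlap by a small margin (log2 difference -0.76, 95% interval -1.28 to -0.25; -0.01 from its other probe set). The metallothionein Mt3 gave 1.64 (95% interval 0.61 to 2.67), and the transferrin receptor Tfrc, through which cells take up iron, -2.93 (95% interval -4.75 to -1.11), with 74.9, 2764, 171, 151 and 17.5 in treated diabetic and 853, 7396, 328, 1495 and 2008 in normal arrays. Without treated diabetic replicate 2 the Tfrc difference was -3.89 (limma adjusted p = 0.0479). Gpx1, the selenium-containing peroxidase, gave -1.16 (95% interval -2.16 to -0.16), with treated diabetic replicate 5 at 2447 and the other 4 at 22870 to 29314, all below the normal arrays; a bright probe set of the same gene gave -0.20. Adipocyte markers (12 measured) had a median of -0.10. Among them, 2 genes, Cfd (adipsin) and Fabp4, the adipocyte fatty acid binding protein, were higher at an unadjusted p under 0.05, with log2 differences of 1.42 (95% interval 0.38 to 2.46) and 1.04 (95% interval 0.12 to 1.96), while 7 of the 12 estimates were negative; the summed signal of the list was 42616 to 52678 in treated diabetic and 43749 to 66140 in normal arrays. In lipid and cholesterol synthesis (23 measured, median 0.00), Insig1, which holds back cholesterol synthesis, gave 1.26 (0.15 from its other probe set). Gpam, the first enzyme of glycerolipid synthesis, gave -1.78 (-0.77, -0.93, -0.69 and -0.12 from others). Fdft1, squalene synthase, gave -1.64 (0.28, -0.02 and -0.25 from others). Glucocorticoid and atrophy genes (15 measured) had a median of 0.38, beside 0.55 in diabetic muscle, with 2 higher and 1 lower. Sgk1, a glucocorticoid-induced kinase, gave -0.95. Cebpd, a glucocorticoid-induced transcription factor, gave 0.67, and 0.10 and -0.62 from its other probe sets, which disagree in sign.

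Markers of other cell types gave medians of 0.23 for endothelium (15 measured), -0.13 for smooth muscle (9), 0.02 for nerve and Schwann cells (16), 0.25 for mast cells (10, of which 5 were dim on all 10 arrays) and 0.08 for blood cells (5). The 16 skeletal muscle markers had a median of 0.15 (0.55 without normal replicate 3 and -0.04 without treated diabetic replicate 1), and their summed signal was 1372150 to 2504223 in treated diabetic and 1076448 to 4099316 in normal arrays. For the neuromuscular junction the median was -0.25, for heat shock proteins and chaperones -0.11, and for fasting genes linked to the lipid-sensing receptor PPAR -0.02. None of these 27 lists had a gene past the adjusted threshold. The medians of 14 of the 27 turned sign under at least 1 of 23 alternatives and those of 13 under none, among them slow fibre, ribosomal, immediate early and glucocorticoid genes. The plot of list medians sets each beside its diabetic value; both use the same normal arrays.

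**Figure D4:**
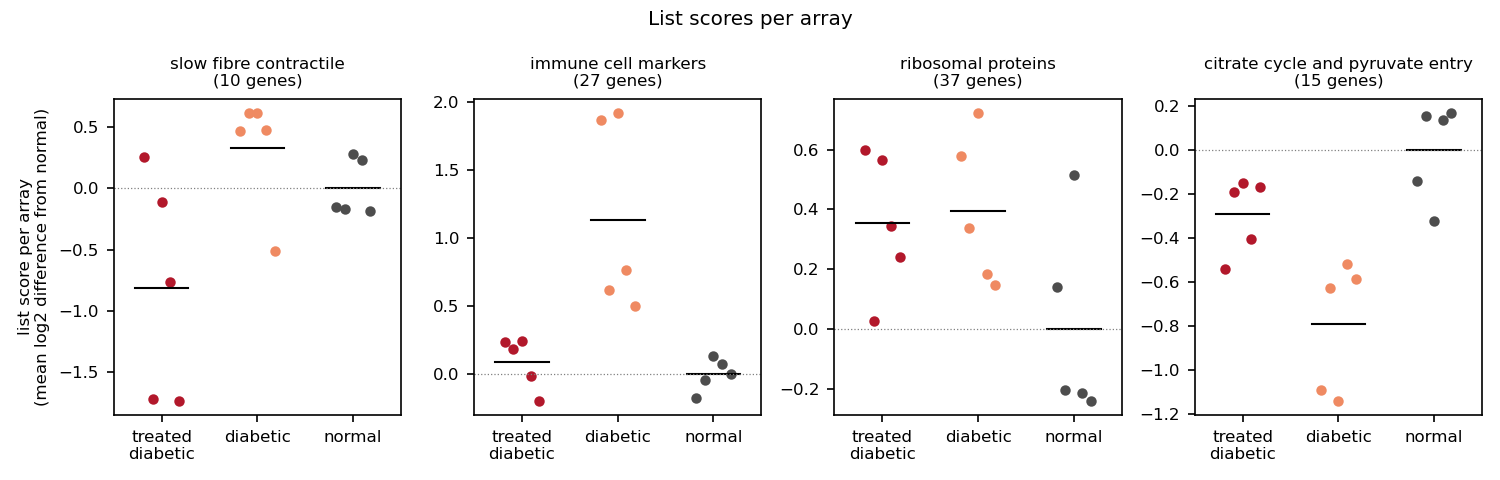
Score per array, the mean log2 difference of a list's genes from their mean in normal arrays, for treated diabetic, diabetic and normal arrays. Slow fibre scores run from -1.73 to 0.25 in treated diabetic and -0.18 to 0.28 in normal arrays, and immune scores from -0.19 to 0.24 in treated diabetic, 0.50 to 1.92 in diabetic and -0.17 to 0.14 in normal arrays.

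**Figure D5:**
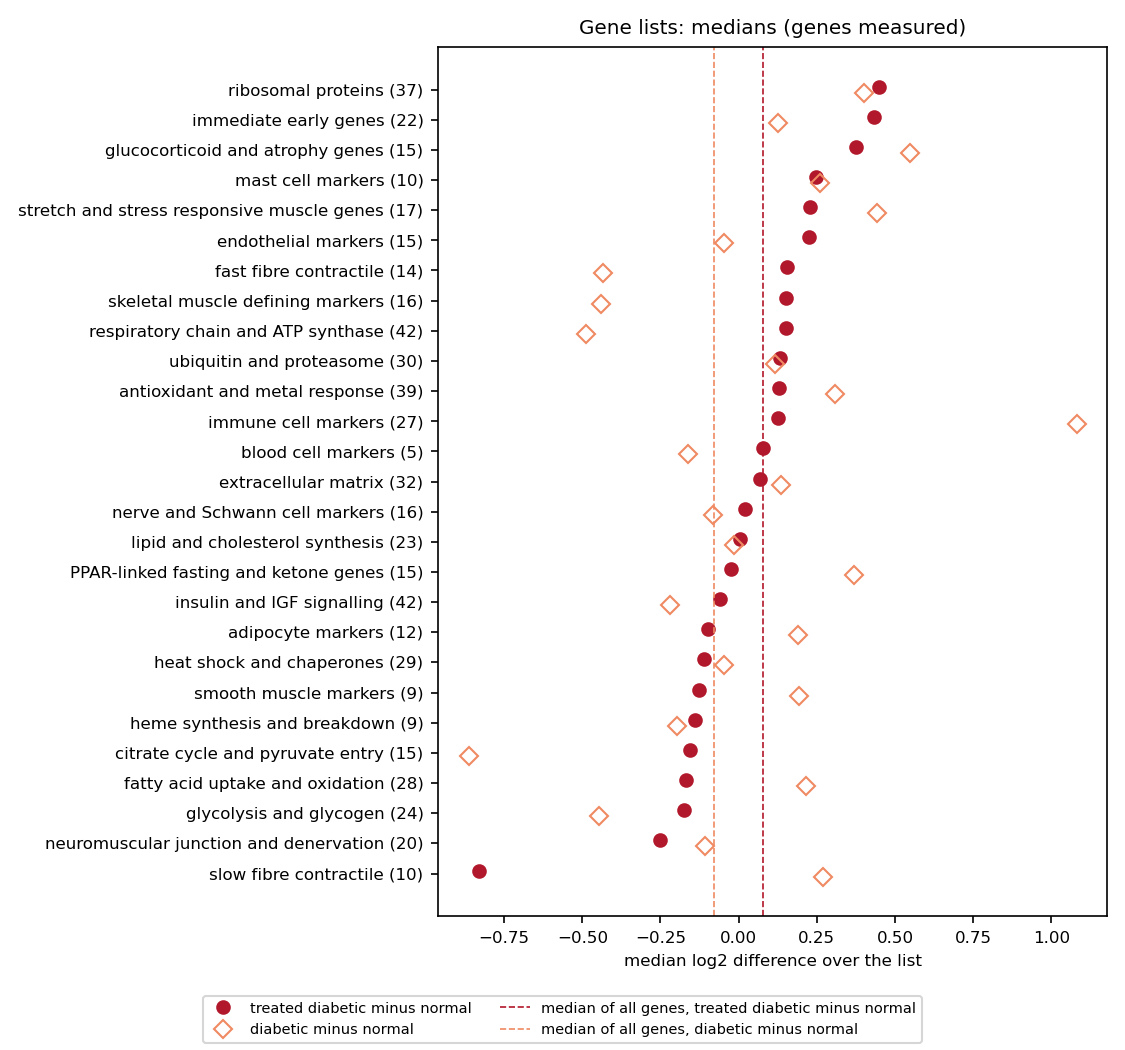
Median log2 difference of each of 27 gene lists, with the number of genes measured in brackets; filled points are treated diabetic minus normal and open diamonds diabetic minus normal, and dashed lines are the medians over all 4736 genes. The treated diabetic medians run from -0.83 (slow fibre) to 0.45 (ribosomal proteins).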

How the data were processed

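Muscle RNA was measured on 20 one-colour Affymetrix rat arrays, 5 per group, and treated diabetic and normal muscle were compared. The values analysed are the deposited signal intensities on a linear scale, 1 for each probe set on each array. Per the submitters' processing notes, the authors computed them with MAS5, for which no version is stated. Per the labels' protocols, poly(A) RNA was labelled with biotin. The table has no detection calls, so a signal was called dim when it lay under its array's own 40th percentile. The arrays' trimmed means were already equal (2504 to 2506 in the 10 compared arrays), so the authors' scaling was kept.

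From 8799 probe sets, 59 control probe sets were left out. Group means were fitted to log2(signal + 16) of all 20 arrays with limma 3.58.1 (R 4.3.3; lmFit and eBayes), two-sided, with Benjamini-Hochberg adjustment over 8740 probe sets and a threshold of 0.05. The platform annotation gave 7018 probe sets 1 gene symbol, 308 several and 1473 none here; the brightest probe set stood for a gene (4736 genes). Every adjusted p of a gene is from limma. Other probe sets of a named gene, where given, are log2 differences of the same comparison.

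The members and gene lists were chosen with earlier results of these data known. Named genes were the 5 of smallest p in each direction (since fewer than 3 passed, and bright in the higher group), the 12 rises and up to 12 falls of largest size in diabetic against normal muscle (11 falls passed), the 2 to 4 list members of smallest p, and fuel and insulin genes. Gene lists are described by counts and medians. Control 3' to 5' ratios were compared by exact permutation over 252 splits (smallest possible p 0.00794). The fit was tested on simulated data with known changes. Alternatives changed the arrays fitted, the dim filter, the pseudocount, the normalization, covariates, weights, the replicate block and each array left out in turn. The deposited table served for every value, and no column was left unused.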

Additional observations from a re-analysis of the deposited data

Results flagged for a closer look

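In groups of 5 arrays, chance alone sets a single array apart by Dixon's test in about 1 in 20 groups. With 85 named genes and 27 lists described, some of the following are to be expected by chance alone. Single arrays stood apart from the other 4 as follows. In treated diabetic muscle these were Spock2 in replicate 4 (2694 against 864 to 1148 in the others), Hspa2 in replicate 2 (196.6 against 25.8 to 41.3), Cmss1 in replicate 4 (398 against 1059 to 1495), Insr in replicate 3 (159 against 298 to 375), Sgk1 in replicate 3 (883 against 509.9 to 587) and Klf4 in replicate 3 (979 against 2726 to 4029).

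Treated diabetic replicate 5 stood apart for Cpt1a (3754 against 781 to 1092), Cpt2 (2254 against 5953 to 8118), Gpx1 (2447 against 22870 to 29314) and the score of the heme list (-0.42 against -0.25 to -0.19). In normal muscle these were Coro1a in replicate 2 (219 against 65.9 to 89.2), Cmss1 in replicate 2 (5344 against 1469 to 2015), Gfm1 in replicate 3 (5429 against 7853 to 8220), Alad in replicate 4 (3248 against 2272 to 2368), Esm1 in replicate 5 (597 against 1072 to 1259.5) and the score of the blood cell list in replicate 3 (0.57 against -0.27 to -0.06). Replicate 3 of normal muscle was also one of the arrays of high Gapdh ratio. The cause of these values was not tested.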

How the results depend on the processing

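The count of probe sets past the threshold, 0, stayed 0 with the 10 compared arrays alone, the dim filter, a larger pseudocount and a pseudocount of 1, quantile normalization, the 3'/5' covariates, a trended robust prior, the replicate block, and the covariates without the 3 arrays of high Gapdh ratio. It was 1 with array weights (1 higher, Spock2). Without the 3 arrays of high Gapdh ratio it was 212 (57 higher, 155 lower), and 233 (89 higher, 144 lower) with quantile normalization as well; this setting and the covariates without those arrays were chosen after seeing the data. Leaving out 1 array at a time gave 0 to 3 in all, 0 to 1 higher and 0 to 3 lower: 3 without treated diabetic replicate 2 (Add1, Hspa2 and Tfrc, lower), 1 without normal replicate 1 (Hsd17b4, lower) and 2 without normal replicate 3 (Spock2 higher, Gpam lower). The cause of each was not tested.

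Of 1866 values of 85 named genes under the alternatives, 1799 kept their direction and stayed short of the threshold, 41 of 22 genes kept it and passed, and 26 of 13 genes turned sign, all from values that had not passed. With the covariates, Cidea was 0.11 and Thbs4 -0.17. With array weights, Esm1 was 0.007 and Gnat3 0.076. Quantile normalization gave -0.013 for Fabp3; without the arrays of high Gapdh ratio it gave 0.37 for Esm1 and -0.17 for Fabp3, where the authors' scaling gave 0.20 for Esm1. Without those arrays and with the covariates, Acsl6 was 0.22, Coro1a -0.66, Cpt1a -0.14, Fabp3 -0.38, Gnat3 0.35, Myh3 -0.26 and Slc2a4 0.047. With 1 array left out, the log2 difference ran from -0.064 to 0.60 for Coro1a, -0.061 to 0.49 for Lyz2, -0.082 to 0.55 for Thbs4, -0.35 to 0.02 for Cidea, -0.52 to 0.093 for Gnat3, -0.31 to 0.051 for Esm1, -0.53 to 0.065 for Cpt1b, -0.075 to 0.51 for Fabp3 and -0.31 to 0.092 for Insr.

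With all probe sets of a gene averaged, list medians moved to -0.13 (antioxidant), -0.57 (citrate cycle), -0.47 (glycolysis), -0.30 (heat shock), -0.20 (PPAR-linked), -0.12 (matrix), -0.72 (smooth muscle), 0.08 (stretch), 0.05 (endothelial), -0.09 (ubiquitin) and -0.09 (neuromuscular junction). The other lists moved by less than each of these, and lipid synthesis turned to -0.08. Genes picked at an unadjusted p under 0.001 in diabetic against treated normal muscle had medians of 0.19 (57 higher) and -0.11 (85 lower), beside 0.20 and -0.09. The replicate numbers showed no consistent pairing: deviations from the group means of same-numbered arrays correlated at -0.07, 0.56, 0.09, 0.01 and -0.18. Only replicate 2 correlated best with its own number. With the replicate block 0 probe sets passed and 992 had an unadjusted p under 0.05, beside 893. With 5 arrays per group the median standard error was 0.40 on the log2 scale, and dim probe sets carry less certain folds than bright ones.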
